A study of Mus musculus with 2 samples.

Results

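The numbered Zfp genes of the mouse are the genes whose symbol is Zfp followed only by a number, such as Zfp28 or Zfp646. They were picked by symbol alone among the protein-coding genes of the RefSeq annotation of GRCm38, and no ChIP value entered that rule. The choice of this gene family was made with earlier results of these data known. There were 367 members among 21887 protein-coding genes on the assembled nuclear chromosomes. The question was which of these genes carried a Usp16 ChIP peak at an end, and whether genes that lie in arrays of Zfp genes differed in this from genes that stand alone. A gene-end peak is here any peak of the list that shares at least 1 bp with the stretch from 1 kb before to 1 kb after one of the annotated ends of a gene.

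The chromatin came from mouse bone marrow, from cells with both c-Kit and Sca-1 on their surface, a selection that enriches blood stem and progenitor cells. The study made 1 library with an antibody against Usp16, which removes ubiquitin from histone H2A, and 1 library with IgG, and the file analysed is a list of peaks. The mice of both libraries had loxP-flanked Usp16 alleles and the Cre recombinase under the Mx1 promoter, which answers to interferon. The labels do not say whether Cre had been induced, so whether the cells still made Usp16 is not known. A peak list holds no expression values, so the labelled cell type could not be checked against its markers, and neither Kit nor Ly6a, the genes of the selecting proteins, carried a gene-end peak. The list held 5079 peaks, 5046 of them on assembled chromosomes, with a median peak-caller score of 70.1 and no score below 50. There were no replicates, so no difference below was tested. Intervals are 95% intervals and cover counting error only.

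Most numbered Zfp genes encode proteins with arrays of C2H2 zinc fingers, small folds held by zinc that read DNA bases. Many of these proteins also have a KRAB domain, which recruits the corepressor Trim28 and, through it, the histone H3 lysine 9 methyltransferase Setdb1, and many are known for silencing retroelements. Genes of this kind multiplied by local duplication and often lie side by side in tandem arrays, and array members can be close in sequence. The number in a symbol is a serial number and not a measure of kinship, and some members are no KRAB proteins. Zfp36, for example, binds messenger RNA through CCCH zinc fingers.

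A gene-end peak was found at 71 of the 367 numbered Zfp genes, which is 19.3% (exact interval 15.4 to 23.8%). Of all protein-coding genes 13.9% carried one, and of the protein-coding genes other than these 13.8% did. The 296 members without a listed peak are not shown to be free of Usp16, since weaker sites were not listed and reads that fit several near-identical copies can be lost in alignment, which was not tested. Counting only peaks at or above the median score of the list left 33 members (8.99%, 6.27 to 12.4%), near the 7.99% of all protein-coding genes. No member had more than 1 gene-end peak. The 71 genes were served by 68 distinct peaks, because 3 peaks each lay at a pair of Zfp genes.

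Members that lie in arrays carried peaks less often in this list than members that stand alone, with intervals that overlapped. A member was called clustered when another numbered Zfp gene lay within 100 kb, edge to edge, and isolated otherwise. Peaks were found at 34 of 212 clustered genes (16.0%, 11.4 to 21.7%) and at 37 of 155 isolated genes (23.9%, 17.4 to 31.4%). The difference was 7.83 percentage points, with a Newcombe interval from -0.35 to 16.3 points that includes 0. The clustered share thus lay near the 13.9% of all protein-coding genes, and the isolated share above it.

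Few members sat close to the limit of the clustered class. The members just inside 100 kb were Zfp972, with its neighbour 97.634 kb away, and Zfp605 and Zfp932, which are 97.762 kb apart. None of these carried a peak, but the next one inside, Zfp263 at 96.4 kb, carried a peak with a score of 74.2. Just outside were Zfp936 and Zfp715, 104.413 kb apart, of which Zfp715 carried a peak with a score of 58.5, and Zfp653 at 116.771 kb, which carried none.

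**Figure D1:**
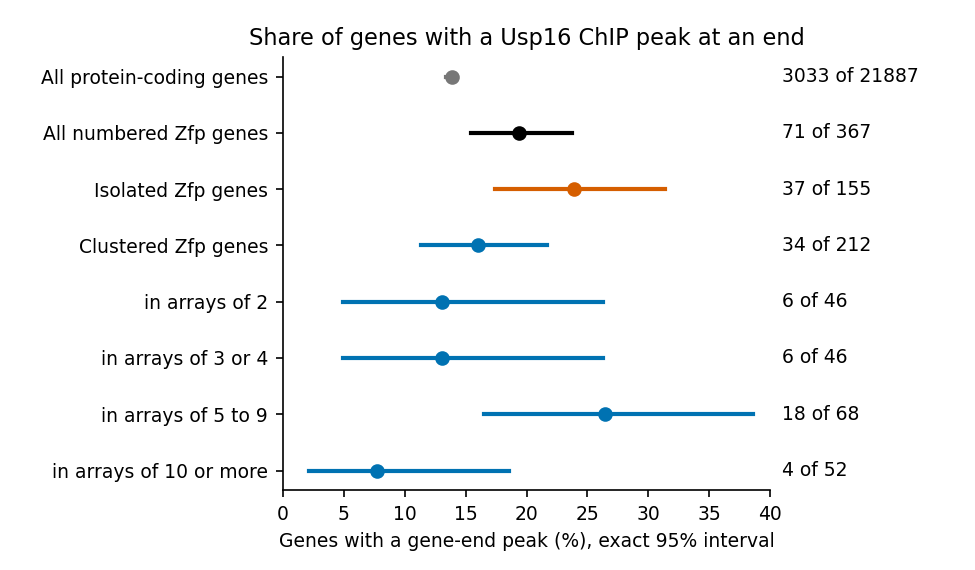
Share of genes with a Usp16 ChIP peak at an end (percent, horizontal axis) for all protein-coding genes, all numbered Zfp genes, isolated and clustered members, and clustered members by the size of their array; points are shares, lines exact 95% intervals, and the counts stand at the right. Members in arrays of 5 to 9 carried peaks at 26.5% and members in arrays of 10 or more at 7.69%, and the interval of the clustered members overlaps that of the isolated ones.

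Peaks in the list were then counted by the size of the array. Joining members with gaps of at most 100 kb gave 52 arrays, of which 30 held no member with a peak, 22 held at least 1 and 8 held at least 2. Peaks were found at 6 of 46 genes in arrays of 2 and at 6 of 46 in arrays of 3 or 4 (13%, 4.94 to 26.3%, in both). In arrays of 5 to 9 they were found at 18 of 68 (26.5%, 16.5 to 38.6%). Among these 18, Zfp786 and Zfp398 share a peak, and so do Zfp28 and Zfp78. In the arrays of 2, Zfp646 and Zfp668 share one. In the 4 arrays of 10 or more, 4 of 52 genes carried one (7.69%, 2.14 to 18.5%), and the intervals of the size classes overlap. Without these 4 largest arrays the clustered share was 18.8%, a choice made after the counts were seen. The arrays also span 49 protein-coding genes with other names, and 6 of those carried a peak (12.2%, 4.63 to 24.8%).

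The 4 largest arrays showed how sparse the peaks were there. The array from Zfp84 to Zfp146 on chromosome 7 has 15 members over 401.224 kb, and peaks lay at Zfp566 (score 116) and Zfp27 (score 56.9) and at no other member. The array from Zfp712 to Zfp748 on chromosome 13 has 14 members over 514.559 kb, and no peak of the list lay anywhere in its span. Among the 13 members from Zfp677 to Zfp943 on chromosome 17, Zfp52 carried the only peak, with a score of 55.3. Among the 10 members from Zfp180 to Zfp94 on chromosome 7 it was Zfp180, at the edge of the array, with a score of 92.2. On the whole of chromosome 13, 1 of 32 members carried a peak, Zfp169 (score 68.7), which is isolated.

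The arrays with the most members carrying a peak were of middle size. In the array of 6 on chromosome 7 that begins with Zfp628, peaks lay at Zfp628 (score 53.3), Zfp579 (71.6), Zfp524 (159) and Zfp865 (56.2), and none lay at the ends of Zfp784 or Zfp580. Zfp580 held a peak inside the gene, 0.0655 kb from another of its listed starts, with a score of 71.7. In the array of 7 on chromosome 6 that begins with Zfp786, the first 3 genes, Zfp786, Zfp398 and Zfp282, carried peaks. Zfp786 and Zfp398 share a single peak there. The next 4 genes, Zfp212, Zfp956, Zfp777 and Zfp746, carried none. In the array of 5 on chromosome 9 that begins with Zfp560, Zfp560 (57.1), Zfp26 (67.1) and Zfp846 (85.7) carried peaks, while Zfp426 and Zfp266, which lie between Zfp26 and Zfp846, did not.

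**Figure D2:**
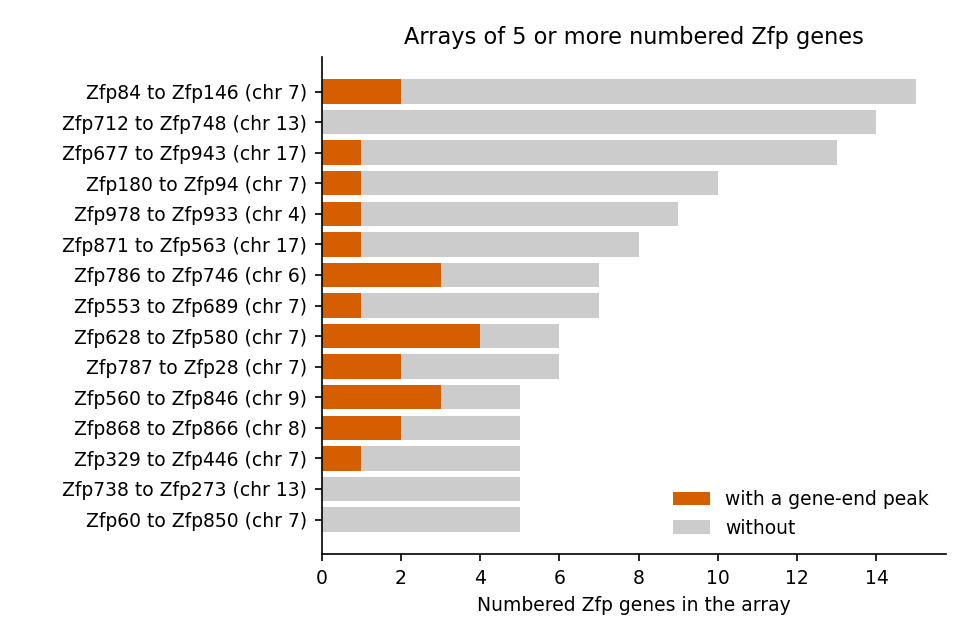
Number of numbered Zfp genes (horizontal axis) in each array of 5 or more, 1 bar per array named by its first and last member, with the members that carry a gene-end peak in orange and those without in grey. The bar of the 14 members from Zfp712 to Zfp748 on chromosome 13 has no orange part, and that of the 6 members from Zfp628 to Zfp580 has 4 members in orange.

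Peaks were more frequent where the end of another protein-coding gene lay close by. Of 53 members with such an end within 1 kb, 21 carried a peak (39.6%, 26.5 to 54.0%), and of the 314 others 50 did (15.9%, 12.1 to 20.4%). The same division gave 26.4% and 9.74% over all protein-coding genes. Within the clustered members the shares were 10 of 27 and 24 of 185, and within the isolated members 11 of 26 and 26 of 129. Isolated members carried peaks at the higher share in both classes of neighbourhood.

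Of the 68 distinct peaks, 18 lay at the ends of at least 2 protein-coding genes (26.5%, 16.5 to 38.6%), near the 24.9% found over all 2466 gene-end peaks of protein-coding genes. For 15 of the 18 the other gene was no numbered Zfp gene. At 4 of the 10 highest-scoring members it was such a neighbour: Sh3bp5l beside Zfp672, Fiz1 beside Zfp524, Trip4 beside Zfp609, and Bcs1l, whose product helps assemble complex III of the respiratory chain, beside Zfp142. By gene ends the peak midpoint was nearer to the neighbour at Fiz1, Mrps5 beside Zfp661, Ccdc92 beside Zfp664 and Tmem253 beside Zfp219. By the nearest listed start it was nearer to the neighbour at Mrps5, Bcs1l, Arhgap1 beside Zfp408, Dedd2 beside Zfp526 and Usb1 beside Zfp319. By that count Zfp664 and Zfp219 were nearer than their neighbours, and Zfp524 has no listed start here. Peaks nearer to the neighbour by either count cannot be given to the Zfp gene alone. Noncoding genes also lay at 12 of the 68 peaks, 11 times a long noncoding RNA and once the miRNA gene Mir7668 at Zfp27.

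Of the 3 peaks shared by numbered Zfp genes, 1 lay at a head to head pair, 1 at a head to tail pair and 1 at Zfp668 and Zfp646, for which the strand of Zfp646 is not given here. The sequences before the annotated starts inside these peaks are shown, from the RefSeq start windows of GRCm38.p6, because they are the bases just before a start that each peak covers. They read 5′ to 3′ on the strand of the named gene, capitals mark CG dinucleotides, and every base shown lies inside the shared peak. The Zfp668 stretch is chr7:127876837-127876913 on the minus strand and is the whole gap of 77 bp to Zfp646, the Zfp398 stretch is chr6:47835411-47835632 on the plus strand and lies inside the body of Zfp786, and the Zfp28 stretch is chr7:6383068-6383205 on the plus strand.
Zfp668: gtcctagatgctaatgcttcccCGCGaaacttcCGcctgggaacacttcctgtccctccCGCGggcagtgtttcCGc
Zfp398: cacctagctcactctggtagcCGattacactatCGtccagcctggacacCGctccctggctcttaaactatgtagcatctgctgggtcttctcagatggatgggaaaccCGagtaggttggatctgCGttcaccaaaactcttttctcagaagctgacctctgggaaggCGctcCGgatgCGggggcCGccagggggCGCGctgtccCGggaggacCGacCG
Zfp28: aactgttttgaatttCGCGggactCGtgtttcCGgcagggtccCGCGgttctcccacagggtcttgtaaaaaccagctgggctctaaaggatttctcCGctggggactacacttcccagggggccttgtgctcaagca

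The highest-scoring and widest peak of all members lay over the Zfp668 and Zfp646 pair on chromosome 7 (chr7:127875132-127877435), with a score of 239 and a width of 2304 bp. Its midpoint lay 552.5 bp inside Zfp668, counted from the start of that gene, and 630.5 bp from the nearer end of Zfp646. The gap of 77 bp between both genes holds 6 CG dinucleotides. These genes form an array of 2 with no other numbered Zfp gene within 100 kb.

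The peak shared by Zfp398 and Zfp786 on chromosome 6 had a score of 76.2 and a width of 704 bp. The outer starts of both genes lie there on opposite strands, 564 bp apart, so that the genes overlap. The peak midpoint lay 22.5 bp from the outer start of Zfp398 and 541.5 bp inside Zfp786. The peak covered the outer start of Zfp398 and not that of Zfp786. The nearest listed start lay 5.5 bp from the midpoint for Zfp398 and 5150.5 bp from it for Zfp786. The 222 bases shown before Zfp398 hold 14 CG dinucleotides.

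The peak shared by Zfp28 and Zfp78 on chromosome 7 had a score of 71.1 and a width of 635 bp. Both genes lie on the plus strand, so that the 3′ end of Zfp78 precedes the start of Zfp28. The midpoint lay 8 bp from the start of Zfp28 and 592 bp past the end of Zfp78, and the start of Zfp78 had no peak. The count of this peak for Zfp78 thus comes from the window rule.

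Close ends alone did not come with a shared peak. There were 14 pairs of numbered Zfp genes with ends within 2 kb of each other, and 3 of these pairs shared a peak. Of 5 pairs with their outer starts head to head 1 shared a peak. The pair with the closest outer starts, Zfp944 and Zfp758 on chromosome 17, carried none at either gene. The pair Zfp784 and Zfp580, with outer starts 73 bp apart, also carried none there. Of 3 pairs that meet tail to tail none shared a peak.

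Peaks at numbered Zfp genes lay at the outermost annotated start of the gene in nearly every case where strand was known. The RefSeq start windows give strand for 305 of the 367 members, 60 of them with a peak, and these 60 gene-peak pairs rest on 58 distinct peaks. In 59 of the 60 pairs the peak lay at this outer start (98.3%, 91.06 to 99.96%). The remaining pair was Zfp78 with the peak at the start of Zfp28, so all 58 distinct peaks lay at the outer start of a numbered Zfp gene. A listed start lay within 500 bp of the midpoint in 54 of the 59 pairs. The midpoints farthest from any listed start of their gene were at Zfp597 (12163.5 bp), Zfp786 (5150.5 bp) and Zfp526 (2109 bp). Over all protein-coding genes with a peak and a strand, 2332 of 2578 gene-peak pairs were at the outer start (90.5%). In genes longer than 10 kb, where the windows at both ends lie well apart, the counts were 44 of 45 for the members and 1652 of 1777 for all (93.0%).

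The midpoints sat slightly inside the members. Counted from the outermost annotated start, with positive values into the gene, the median position over the 59 gene-peak pairs at a start was 68.5 bp (10 to 123.5 bp), and in 39 of the 59 the midpoint lay downstream. The peak of Zfp398 and Zfp786 enters these values under both genes. Over all protein-coding genes the median was -11.75 bp, and 46.8% lay downstream. Many genes have further listed starts, and counted from the nearest of those the median was -25.5 bp (-77.5 to 21.5 bp) for the members and -70.5 bp for all. The unsigned distance from the nearer gene end had a median of 150 bp (103.5 to 236 bp) for the members and 127 bp (119.5 to 135.5 bp) for all, and 132.5 bp and 162.5 bp for clustered and isolated members.

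**Figure D3:**
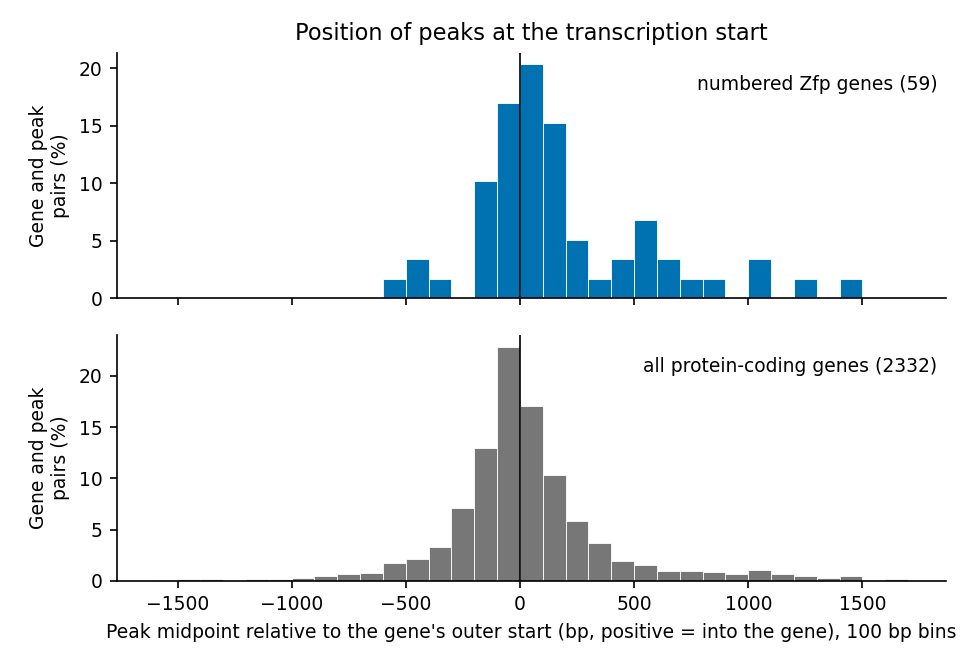
Position of peak midpoints relative to the outermost annotated transcription start (bp, horizontal axis, positive into the gene) for 59 gene-peak pairs of numbered Zfp genes (upper panel) and 2332 gene-peak pairs of all protein-coding genes (lower panel), as percent of pairs in bins of 100 bp. The median position is 68.5 bp for the Zfp genes and -11.75 bp for all protein-coding genes.

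Single members spanned the whole range of positions. The nearest midpoints lay 2 bp from an end at Zfp560, 8 bp at Zfp28 and 9 bp at Zfp865. The farthest lay 1430 bp away at Zfp46, 1237 bp at Zfp335 and 1054 bp at Zfp219. At those farthest members another listed start was closer, 469 bp from the midpoint at Zfp46, 402 bp at Zfp335 and 373 bp at Zfp219. Of 13 gene-peak pairs with a midpoint more than 500 bp from the outer start, 9 lay within 500 bp of some listed start, among them Zfp959 (24.5 bp), Zfp933 (22 bp) and Zfp637 (18 bp).

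The 1 kb limit itself decided few members. The peak covered the annotated end at 53 of the 71 members, and the member nearest the limit was Zfp46, with a peak edge 979 bp from its end. Just outside lay Zfp53 at 1069 bp, by the peak at the start of its neighbour Zfp52, then Zfp41 at 1188 bp and Zfp384 at 1322 bp. By midpoint the closest members without a gene-end peak were Zfp53, Zfp41 and Zfp821, with 1366 bp, 1471 bp and 1882 bp. Over the 296 members without a gene-end peak the nearest midpoint lay a median of 105.243 kb from an end.

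Peaks at numbered Zfp genes had a lower median score than gene-end peaks of protein-coding genes in general, with intervals that overlapped. They were about as wide, and the intervals of the median widths overlapped too. The score is assigned by the peak caller and ranks peaks within this list only. The median score of the 68 peaks was 68.1 (63.7 to 76.2), and it was 74.4 (73.1 to 76.5) over the 2466 gene-end peaks. A score of 100 or more was found at 14 of the 68 (20.6%) and at 28.3% of the 2466. The median widths were 755.5 bp (704 to 818 bp) and 788.5 bp (771 to 800 bp), and 17.6% of the member peaks and 26.1% of all were at least 1 kb wide.

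Clustered and isolated members had peaks of similar size, with overlapping intervals. The median score was 65.1 (57.1 to 76.2) for the 31 peaks at clustered members and 68.7 (64.9 to 89.1) for the 37 at isolated ones. The median widths were 771 bp (692 to 889 bp) and 754 bp (645 to 796 bp). The 18 peaks at 2 or more protein-coding genes had a median score of 73.7 and the 50 at a single one 65.7, with intervals of 65.4 to 122 and 58.8 to 74.2 that overlap.

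**Figure D4:**
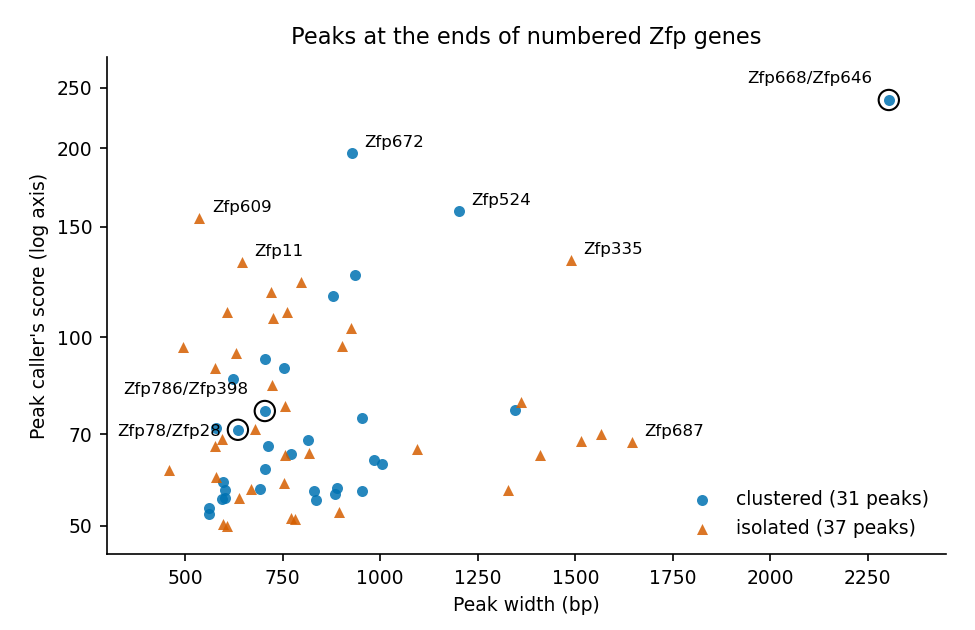
Score (vertical axis, log scale) against width (bp, horizontal axis) of the 68 peaks at numbered Zfp genes, with the 31 at clustered members as circles, the 37 at isolated members as triangles and the 3 shared peaks ringed. The peak of Zfp668 and Zfp646 stands apart at 2304 bp and a score of 239, and the other peaks of both classes overlap in both measures.

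The 10 members with the highest scores were Zfp646 and Zfp668, which share the peak of 239, then Zfp672 (197), Zfp524 (159), Zfp609 (155), Zfp335 (133), Zfp11 (132), Zfp768 (125), Zfp142 (122) and Zfp949 (118). Zfp335 is a nuclear receptor coregulator needed in brain development and T cell maturation, and its peak, 1489 bp wide, lay inside the gene. Of these 10 members 5 were clustered and 5 isolated, and none of the 5 clustered ones lay in an array of more than 7. After the shared peak of 2304 bp the widest were those of Zfp687 (1646 bp, score 68.0) and Zfp513 (1566 bp, score 70.1). The narrowest lay at Zfp704 (458 bp), Zfp770 (495 bp) and Zfp609 (536 bp), so the narrow peak of Zfp609 was among the highest scoring. The lowest scores, 50 at Zfp867 and 50.25 at Zfp433, were at the floor of the list.

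Among 28 members whose protein has been studied individually 5 carried a peak (17.9%, 6.06 to 36.9%), near the 19.3% of all members and with an interval that spans the 13.9% of all protein-coding genes. Of the 28, 24 are isolated. Zfp809, a KRAB protein that binds the primer binding site of murine leukemia viruses and silences them through Trim28, had a peak of score 76.5 and width 1345 bp, 10 bp from its start. Zfp148, a factor that binds GC-rich promoter elements, had a peak of 71.4. Zfp335, with its peak of 133, belongs to these 5. Zfp106, an RNA-binding protein needed by motor neurons, had 51.5, and Zfp706 had 51.2, both close to the lowest listed score.

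No gene-end peak was listed at Zfp36, which destabilises cytokine messenger RNAs, at Zfp42, the stem cell marker also called Rex1, or at Zfp57, which maintains imprinted methylation. None was listed at Zfp143, Zfp281, Zfp568, which represses a placental transcript of Igf2, or Zfp932, a silencer of retroelements. Zfp521 and Zfp423, related proteins that bind early B cell factors, held a peak inside the gene and none at an end. The peak in Zfp521 had a score of 93.2 and lay 28.88 kb from the nearer end, and that in Zfp423 had a score of 65.7 and lay 100.299 kb from it. In all, 9 members had a peak inside the gene and no gene-end peak, and at Zfp445, Zfp580 and Zfp787 that peak lay 0.0605, 0.0655 and 0.235 kb from another listed start.

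The partners of KRAB proteins were read from a list of 23 symbols, of which 22 are in the gene table. Peaks lay at 4 of the 22 (18.2%, 5.19 to 40.3%), with an interval that spans the 13.9% of all protein-coding genes. All 4 lay at the outer start where strand is known. The 4 genes were Hdac2 (score 180), Hdac1 (68.8), Setdb1 (165) and Cbx3 (53.3). Hdac2 and Hdac1 are histone deacetylases of the NuRD complex, and Cbx3 encodes a heterochromatin protein that binds methylated histone H3. The Cbx3 peak is also a gene-end peak, as defined above for either end, of another protein-coding gene, Hnrnpa2b1. Trim28 had no gene-end peak.

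The CG content of the start windows differed between clustered and isolated members, and shares with a peak were therefore also read by CG class. A start window reaches from 250 bp before to 50 bp after an annotated start. The median number of CG dinucleotides was 13 in the 305 member windows and also 13 in those of all 17492 protein-coding genes with one. It was 11 in clustered and 17 in isolated members. Windows of protein-coding genes with a peak had a median of 21, and those of members with a peak 16. Clustered members had 16 with a peak and 11 without, and isolated members 16 with a peak and 17 without.

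Peak shares of all protein-coding genes rose over the classes of under 5, 5 to 9, 10 to 14 and at least 15 CG, from 1.90% through 7.42% and 18.3% to 23.4%. The members had 2 of 27 (7.41%), 13 of 79 (16.5%, 9.06 to 26.5%), 11 of 58 (19.0%) and 34 of 141 (24.1%). In the class of 5 to 9 the share of the members thus had an interval above the value of all protein-coding genes. In the class of at least 15 CG, the shares of clustered and isolated members were 16 of 68 (23.5%) and 18 of 73 (24.7%), a difference smaller than that over all members. In the classes below it the isolated members had the higher share, with intervals that overlapped. Whether CG content has a part in the difference between clustered and isolated members was not tested further.

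**Figure D5:**
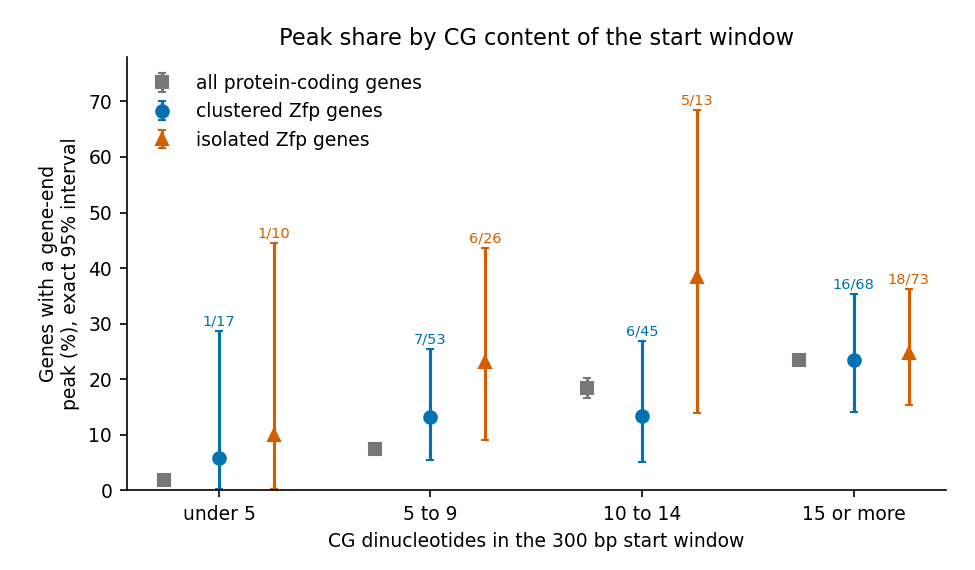
Share of genes with a gene-end peak (percent, vertical axis) by the number of CG dinucleotides in the 300 bp start window, for all protein-coding genes (squares), clustered (circles) and isolated (triangles) numbered Zfp genes, with exact 95% intervals and counts. At 15 or more CG the 3 shares lie between 23.4 and 24.7%.

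The start windows of the members were searched for 9 short motifs on both strands, and 1 stood out. This is the core of the site bound by ZNF143, the human counterpart of Zfp143, spelled here as ACTACA, any 2 bases, then TCCC. It was present in 49 of 305 member windows (16.1%, 12.1 to 20.7%), in 2.78% of the windows of all protein-coding genes and in 1.81% of all 32851 listed windows. It was found in 44 of 183 clustered members (24.0%, 18.05 to 30.9%) and in 5 of 122 isolated ones (4.10%, 1.34 to 9.31%). Members of an array can descend from 1 ancestral gene, so their windows are not independent. The match began a median of 56 bp before the listed start, and in 1 window, that of Zfp606, it overlapped a CCAAT match. Of 27 windows on chromosome 13, 16 held the core, 11 of them in the array from Zfp712 to Zfp748. Without chromosome 13 it was in 33 of 278 member windows (11.9%) and in 28 of 163 clustered ones (17.2%).

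Members with this core did not carry peaks more often. Of the 49 windows with the core 6 belonged to a gene with a peak (12.2%, 4.63 to 24.8%), and of the 256 windows without it 54 did (21.1%, 16.3 to 26.6%). No core window on chromosome 13 belonged to a gene with a peak. Outside that chromosome 6 of 33 did, beside 59 of all 278 member windows there. Among clustered members the counts were 4 of 44 with the core and 26 of 139 without. Among isolated members they were 2 of 5 and 28 of 117, and the intervals overlapped in both classes. Over all protein-coding genes the core was in 5.50% of the windows of genes with a peak and in 2.32% of those without. The 6 members with both were Zfp691, Zfp933, Zfp28, Zfp180, Zfp566 and Zfp317. The 100 bases before the listed start of 6 members are shown, from RefSeq GRCm38.p6, because the same core stands in genes of the large arrays with and without a peak. They read 5′ to 3′ on the strand of the gene, and capitals mark the core on either strand. The Zfp566 and Zfp180 stretches lie wholly inside a peak, and the others lie in none. They are chr7:30090511-30090610 (minus strand), chr7:24081797-24081896 (plus), chr7:29768452-29768551 (plus), chr7:24112220-24112319 (plus), chr13:67306413-67306512 (minus) and chr13:67360573-67360672 (minus).
Zfp566: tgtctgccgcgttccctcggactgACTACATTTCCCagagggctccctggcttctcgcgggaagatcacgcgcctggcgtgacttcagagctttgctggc
Zfp180: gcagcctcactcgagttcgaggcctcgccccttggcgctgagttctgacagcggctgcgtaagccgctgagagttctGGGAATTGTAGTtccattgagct
Zfp84: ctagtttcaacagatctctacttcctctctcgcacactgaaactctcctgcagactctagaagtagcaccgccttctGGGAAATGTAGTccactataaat
Zfp112: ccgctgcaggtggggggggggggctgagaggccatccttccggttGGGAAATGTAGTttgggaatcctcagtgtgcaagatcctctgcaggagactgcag
Zfp457: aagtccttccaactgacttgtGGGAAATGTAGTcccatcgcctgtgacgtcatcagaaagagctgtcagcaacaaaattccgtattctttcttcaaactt
Zfp953: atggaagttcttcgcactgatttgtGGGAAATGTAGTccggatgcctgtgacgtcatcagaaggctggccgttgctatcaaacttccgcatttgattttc

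Zfp566 and Zfp84 belong to the same array on chromosome 7, Zfp180 and Zfp112 are neighbours in another, and Zfp457 and Zfp953 lie in the array on chromosome 13 without a peak. The stretches inside a peak hold 8 (Zfp566) and 7 (Zfp180) CG dinucleotides, and those outside hold 2 (Zfp84), 2 (Zfp112), 3 (Zfp457) and 5 (Zfp953). These genes were picked after the values were seen and do not stand for their arrays. The whole start windows held 14 CG at Zfp566 and 12 at Zfp180. Among members of these arrays with the core and no peak, some held more, such as Zfp383 (20), Zfp109 (16) and Zfp712 (16). Others held fewer, such as Zfp84 (9) and Zfp457 (7). Zfp457 and Zfp953 also share TGACGTCA, the cyclic AMP response element, a short way downstream of the core. Among the 49 windows with the core, 4 held that element, all on chromosome 13. A match to a motif is a match of letters, and no binding of Zfp143 was measured.

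Of the other motifs, the ETS motif CCGGAAG was in 22.6% of member windows, 11.9% of protein-coding windows and 8.86% of all listed windows, and CCAAT in 50.5%, 39.2% and 37.4%. TATAAA was in 6.23%, 13.3% and 13.6%. GGGCGG, the box of Sp1 and KLF factors, was in 44.3%, 46.3% and 35.7%. The NRF1 motif, GCGCA, any base, GCGC, was in 8.20%, 6.66% and 4.60%, and the YY1 motif AAGATGGC in 5.57%, 3.21% and 2.75%. The cyclic AMP response element was in 2.95%, 2.33% and 1.79%. The palindrome made of TCTCG followed directly by CGAGA was in the window of 1 member, Zfp414, which carried a peak of score 55.5. That palindrome was in 0.726% of protein-coding windows, in 3.28% of those of genes with a peak and in 0.466% of all listed windows. Motifs could overlap, and a window was counted under each motif it held.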

How the data were processed

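The study has 1 anti-Usp16 and 1 IgG ChIP library from sorted mouse bone marrow cells, and 1 deposited list of peaks was used. Each deposited peak has a position and a score set by the peak caller. Per the file headers this was MACS, run in Galaxy. Reads were handled with Bowtie and Picard on build mm10, per the submitters' processing notes. Versions, settings and the use of the IgG library: not given in the sources used here. With no read counts in the list, the depth is unknown.

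Peak starts were made 1-based. Genes came from RefSeq's GRCm38.p6 table (the same assembly as mm10), and strand and sequence from its start windows, of which the window nearest a gene's outer start was used. All 367 members were found in the table by symbol, and 305 had a window. Shares have exact Clopper-Pearson intervals, medians have intervals from order statistics, and the difference of shares has a Newcombe interval. The overlap and cluster counting was tested on simulated data. Python 3.11.15, pandas 2.3.3, numpy 2.4.6, scipy 1.17.1 and matplotlib 3.10.9 were used. The planned count of zinc fingers and KRAB boxes in the proteins was not run, as protein sequences were not used here.

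The rule for the members used symbols alone, but this gene family and the lists were chosen with earlier results of these data known. Named were the 10 members with the highest scores and members that share a peak. Arrays named were the 3 largest and the 3 with the most members carrying a peak. Also named were the extremes of offset and width, the 3 nearest members without a peak, 28 studied members, and up to 4 partner genes. The array from Zfp180 to Zfp94, Zfp169, the members with the core and those whose sequence is shown were named after their values were seen. The alternatives were a score minimum, other windows, overlaps and cluster distances, merged peaks, transcription starts only, suffixed symbols and shared peaks counted once, and 3 more were added after the data were seen.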

Additional observations from a re-analysis of the deposited data

How the results depend on the processing

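The isolated members had the higher share under all 15 alternatives, by 3.42 to 10.04 percentage points. The alternatives reuse the same genes and peak list and are not independent. Merging peaks gave exactly the main shares. Asking for 50% of the peak or for its midpoint in the window gave the same shares as each other. The interval of the difference excluded 0 under 3 alternatives. It did so with the window of 5 kb (1.11 to 19.1 points) and the cluster distance of 500 kb (1.05 to 19.4). The third was genes that share a peak counted once (0.91 to 17.4). That rule drops only clustered genes with a peak, which left 31 of 209. It can only lower the clustered share, so its direction was fixed in advance. With only peaks at or above the median score of the list, 33 members carried a peak, the shares were 7.55% of the clustered and 10.97% of the isolated members, and the median score was 96.5, where 7.99% of protein-coding genes had such a peak. The number of peaks shared by numbered Zfp genes was 11 with the window of 5 kb and 1 with transcription starts only. The wider window reaches more genes, and with starts only the peak of Zfp668 and Zfp646 was lost because Zfp646 has no strand here, and that of Zfp28 and Zfp78 because it lies at the 3′ end of Zfp78. The other 64 of the 70 values under these alternatives stayed within 1.5 times or within their intervals.

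No paired analysis was possible because the peak list comes from 1 library with no replicates. Read depth is unknown and the IgG signal was not analysed here, so no detection limit can be set, and sites below the lowest listed score are unseen.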

Other observations

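Among the 62 genes from Zfp900 to Zfp999, 3 carried a peak (4.84%, exact 95% interval 1.01 to 13.5%): Zfp949 with a score of 118, Zfp933 with 65.1 and Zfp959 with 57.1. The other number classes had 20% (10 of 50, Zfp1 to Zfp99), 17.0% (9 of 53, Zfp100 to Zfp299), 18.03% (11 of 61, Zfp300 to Zfp499), 28.9% (22 of 76, Zfp500 to Zfp699) and 24.6% (16 of 65, Zfp700 to Zfp899), and all protein-coding genes 13.9%. Of the 62 high-numbered genes 44 are clustered, in 22 different arrays. Without them the shares were 19.6% of 168 clustered and 25.5% of 137 isolated members. These classes were looked at after the values were seen, and mappability was not tested.

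Other zinc finger families can be read beside the 13.9% of all protein-coding genes, and their intervals all overlap each other. Of 41 genes whose symbol begins with Zbtb and a number, which mostly encode BTB domain zinc finger proteins, 13 carried a peak (31.7%, 18.1 to 48.1%), led by Zbtb22 with a score of 185, whose peak also lies at Daxx. Among Zkscan genes the count was 4 of 11 (36.4%, 10.9 to 69.2%), with Zkscan5 and Zkscan14 at the same peak. Among Zscan genes it was 2 of 16 (12.5%, 1.55 to 38.3%). Among the Klf genes, which encode Krüppel-like factors, it was 2 of 17 (11.8%, 1.46 to 36.4%), Klf7 and Klf9. The counts were 4 of 16 for Zc3h genes (25%, 7.27 to 52.4%) and 4 of 24 for Zdhhc genes (16.7%, 4.74 to 37.4%). They were 1 of 6 for Zmym and 0 of 3 for Zfhx genes. Of 30 Zfp genes with a letter after the number 5 carried a peak (16.7%, 5.64 to 34.7%), with Zfp518a highest at 88.1.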
